A study of Equus caballus with 6 samples.

Results

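Collagens I, III and V build the banded fibrils of fibrous connective tissue, collagen VI forms the beaded filaments around single cells, and collagens XII and XVI are FACIT collagens, which have interrupted triple helices and lie on fibril surfaces. Their genes were described here as a group of 10: COL1A1, COL1A2, COL3A1, COL5A1, COL5A2, COL6A1, COL6A2, COL6A3, COL12A1 and COL16A1. Members were every non-control probe whose annotation in the array files names one of these genes by symbol or by full name. This gave 36 probes of 43603 on the array, or 10 of the 13593 genes that could be named. All 10 genes had at least 1 probe, and 9 had a probe well above background on at least 1 array. The exception was COL5A1.

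The study hybridised 6 single-colour Agilent horse arrays, 1 for each tissue region, in tissue from the developing and the mature joint. Hindlimbs at gestational day 40 gave the fetal regions, namely the intermediate layer of the interzone, the outer layer of the interzone, and transient embryonic cartilage. The interzone is the flattened cell band that marks the site of a future joint, and transient cartilage is the part of the skeletal template that bone later replaces. The adult regions came from articular cartilage of the stifle at 15 years: superficial (the top 10% of the depth), middle (20 to 30%) and deep (50 to 90%). All regions were laser-captured from 10 µm frozen sections, and their RNA was amplified by PCR of mRNA-derived cDNA before labelling. No treatment or genotype is named for any group, and the number of animals behind each array is not given in the sources used here. Each group is 1 array, so no difference below has a replicate check and none was tested.

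Fibrils of type I collagen are heterotrimers of the chains made by COL1A1 and COL1A2, while type III collagen is a homotrimer of the COL3A1 chain and often shares fibrils with type I. Collagen V, made by COL5A1 and COL5A2, starts and limits these fibrils. The COL6A1, COL6A2 and COL6A3 chains join into 1 heterotrimer, which in cartilage is known as the main collagen of the pericellular matrix. Cartilage fibrils themselves are built mainly of collagens II, IX and XI. The genes COL3A1 and COL5A2 are direct neighbours, as are COL6A1 and COL6A2, with 0 annotated protein-coding genes between them in the RefSeq annotation of the horse assembly TB-T2T.

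The probes are 60-base oligonucleotides, and several results depend on where in the message they lie. Start positions are counted on the transcript model that the files name for each probe, and probes of 1 gene can refer to different models. The first sequences are probes of COL1A2 and COL3A1 that gave other values than the last probe of the same gene.
COL1A2, start 3981: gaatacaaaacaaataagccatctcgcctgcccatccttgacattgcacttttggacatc
COL3A1, start 4436: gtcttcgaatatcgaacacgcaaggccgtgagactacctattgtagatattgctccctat
COL3A1, start 274: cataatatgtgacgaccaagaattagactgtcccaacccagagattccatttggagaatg
The last set holds both COL6A2 probes, which differed between arrays, and the only COL16A1 probe, on which every statement about that gene rests. Capitals mark the stop codon where a probe ends in it.
COL6A2, start 2238: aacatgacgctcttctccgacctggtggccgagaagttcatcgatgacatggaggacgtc
COL6A2, start 2886: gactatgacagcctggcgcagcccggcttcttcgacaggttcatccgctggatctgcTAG
COL16A1, start 4698: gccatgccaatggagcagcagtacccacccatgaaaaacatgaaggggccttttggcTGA

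Levels are given as log2 of the processed signal minus the array's 75th percentile, computed from the 1765 probes that passed the scanner software's well-above-background flag on every array. A level of 0 is thus the signal of a bright probe, and levels of different genes are not set against each other because probes differ in yield. Detection differed widely: 36.9% to 44.6% of the probes were well above background on the fetal arrays, 26.4% on the superficial adult array, 8.4% on the middle and 10.8% on the deep one. No spot was saturated. The fetal arrays were on 1 slide and the adult arrays on another, so slide and age cannot be told apart. The array number limits the precision, and the only errors at hand are the scanner software's spot error and the spread between probes of a gene. For a difference between 2 bright spots the spot error was 0.20. The SD of such a difference between probes of 1 gene, pooled over 1422 genes, was 0.55 for the intermediate interzone against transient cartilage. Aggrecan, SOX9 and COMP, markers of cartilage, were well above background on all 6 arrays. COL2A1, the main cartilage collagen, was well above background on the 3 fetal arrays and on none of the adult ones. GDF5, a marker of the interzone, was well above background in both interzone layers and nowhere else.

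By the reported probe, which is the probe with the highest mean level, the intermediate interzone had 9 members well above background, the outer interzone 8 and transient cartilage 8. In the adult, 7 were so in superficial, 2 in middle and 2 in deep cartilage. The share over all named genes, in the same order of arrays, was 37.6%, 43.4%, 45.5%, 28.6%, 9.49% and 12.1%, so that among the fetal arrays it was lowest in the intermediate interzone, where the most members were detected. In bulk samples of this kind, fewer cells of a type and less RNA per cell cannot be told apart.

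**Figure D1:**
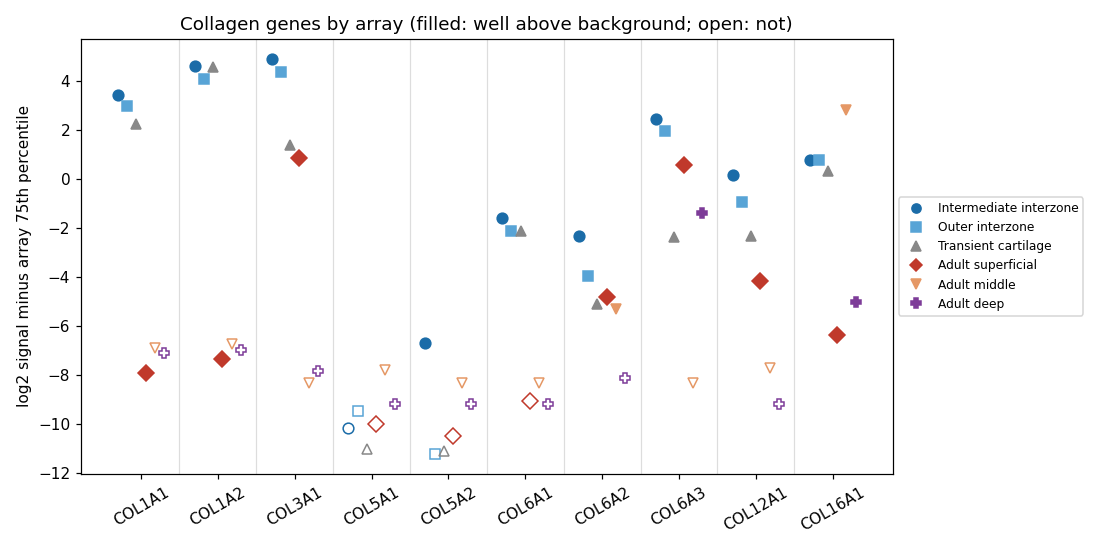
Level of the reported probe of each collagen gene (log2 signal minus the array's 75th percentile) on the 6 arrays; each symbol is 1 array, filled where the probe was well above background and open where it was not. COL1A1, COL1A2 and COL3A1 lie above 0 on all 3 fetal arrays, COL5A1 has no filled symbol, and COL16A1 is highest on the middle adult array, at 2.83.

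COL1A1, which makes the chain present as a pair in each type I collagen molecule, had levels of 3.44 and 2.98 in the intermediate and outer interzone and of 2.26 in transient cartilage. In the superficial adult layer it stood at -7.90, a raw signal of 11 against a lowest detected signal of 8.24 on that array, and in the middle and deep layers it was not well above background. The 3 fetal arrays were thus close together and lay far above the adult ones. COL1A1 was 2.27-fold higher in the intermediate interzone than in transient cartilage and 1.65-fold higher in the outer interzone, log2 differences of 1.18 and 0.72. Both were larger than the spot error, which does not cover differences between probes. Only 1 COL1A1 probe was measured, and the pooled SD between probes of a gene was 0.545 and 0.505 in these comparisons. Another COL1A1 probe, near the start of its own transcript model at position 588, was not well above background on any of the 6 arrays.

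COL1A2, the other type I chain, had levels of 4.63, 4.10 and 4.56 in the intermediate interzone, outer interzone and transient cartilage. The adult superficial array gave -7.36 at this probe, a raw signal of 15.6, and the middle and deep arrays were not well above background. The difference between the intermediate interzone and transient cartilage was 0.07 at this probe, within the spot error of 0.20, and ranged from 0.07 to 0.62 over its 9 probes. Between the outer interzone and transient cartilage the 9 probes gave differences from -0.47 to 0.20, so the sign depended on the probe. It also turned under quantile normalisation, which gave 0.23 for the reported probe against -0.47.

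COL3A1, the type III chain, showed a large contrast within the fetus. Its last probe gave 4.92 and 4.39 in the intermediate and outer interzone, 1.40 in transient cartilage and 0.86 in the superficial adult layer, and was not well above background in the middle or deep layer. Both interzone layers were high, transient cartilage and the superficial adult layer were lower, and the remaining adult arrays gave only a bound. The gene was 11.4-fold higher in the intermediate interzone than in transient cartilage and 7.91-fold higher in the outer interzone.

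The size of that contrast depended on the COL3A1 probe. The neighbouring probe at position 4436 gave 4.91, 4.34, -0.95 and 0.81 on the same 4 arrays, so that its difference from transient cartilage was 5.86 for the intermediate interzone, 58-fold, against 3.52 at the last probe. For the outer interzone the values were 5.29 and 2.98. Between the intermediate and outer interzone the same probes gave 0.57 and 0.53, and between the superficial adult layer and the intermediate interzone -4.10 and -4.06. The disagreement was thus found in the comparisons that include transient cartilage. Whether the last probe also binds messages of related collagen chains was not tested, and the fold changes printed for it carry that limit.

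At the other end of the COL3A1 message, 5 overlapping probes starting at positions 274 to 278 gave a further pattern. Their mean level was -0.96 ± 0.11 (SD, n = 5 probes) in the intermediate interzone and -4.67 ± 0.08 in the outer interzone, and they were not well above background in transient cartilage or in any adult layer. The difference between the interzone layers was 3.70 ± 0.07 there, 13-fold, against 1.45-fold at the last probe. Against transient cartilage the bounds for this site were at least 259-fold higher for the intermediate layer and at least 19.9-fold for the outer layer. A bound of this kind divides the bright signal by the higher of the dim probe's own signal and the lowest signal well above background on the dim array. These 5 probes overlap almost wholly and are 1 site, not 5 independent measurements.

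**Figure D2:**
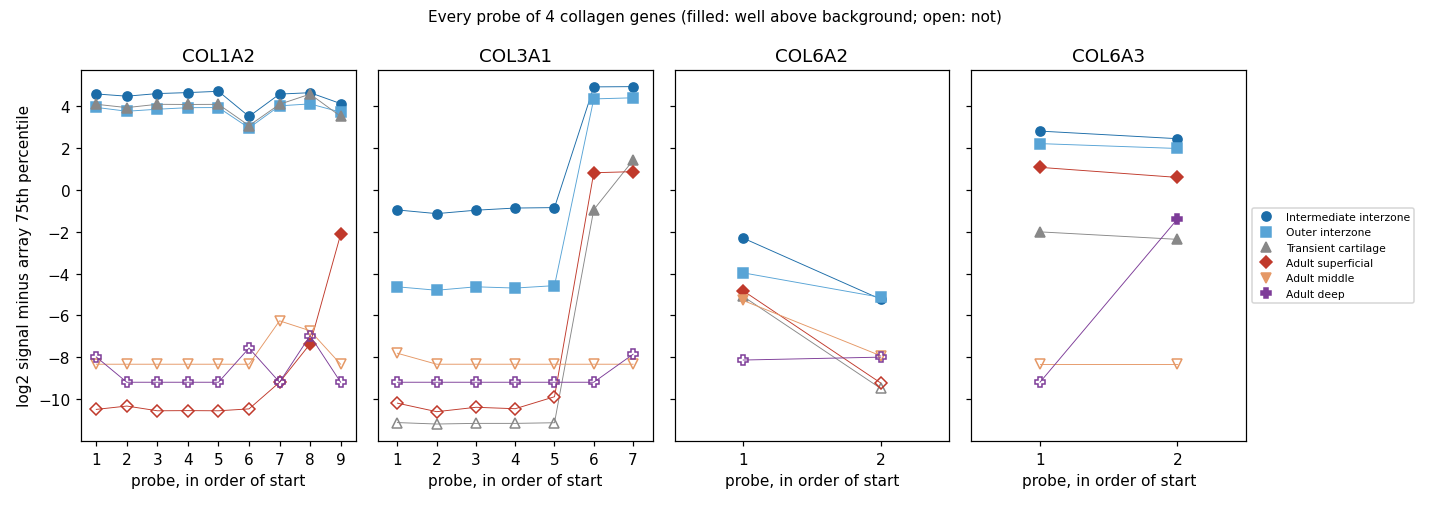
Level of every probe of COL1A2, COL3A1, COL6A2 and COL6A3 (log2 signal minus the array's 75th percentile), with probes in order of start position on the x axis and 1 symbol for each array; filled symbols were well above background, open ones were not, and lines join the probes of an array. The last COL1A2 probe stands at -2.12 on the superficial adult array where the probe before it gives -7.36, and the 5 leftmost COL3A1 probes separate the intermediate from the outer interzone.

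The COL5A1 and COL5A2 probes of the fibril-starting collagen V gave little signal. COL5A1 had 5 probes, all between positions 542 and 558 of the transcript model, and none was well above background on any array, with signals from 1.53 to 6.24. These overlap and are 1 site. The COL1A1 probe at position 588 was dark too, although the other COL1A1 probe was bright, so whether the COL5A1 site reports expression was not tested. COL5A3, outside the group, was well above background in transient cartilage, at -7.85, and in the deep adult layer, at -6.60. Its signals there were 18.5 and 9.16, against lowest signals well above background of 8.46 and 7.65 on those arrays. In the intermediate interzone its level was -7.78 but not well above background, so these values do not separate the fetal regions. COL5A2 had a single probe, at -6.68 and a signal of 23.4 in the intermediate interzone, and was not well above background on the other 5 arrays. It was therefore at least 4.78-fold higher in the intermediate than in the outer interzone and at least 4.92-fold higher than in transient cartilage. Such a low signal sits close to the lowest well above background on that array, 9.24. By the reported probe, the direct neighbours COL3A1 and COL5A2 both had their highest level in the intermediate interzone, as did every other detected member except COL16A1. For COL1A2 the lead over transient cartilage was 0.07, within the spot error of 0.20, and it turned to -0.04 with the 75th percentile over all probes. The other COL6A2 probe gave -5.22 in the intermediate and -5.13 in the outer interzone.

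The type VI chains did not differ alike between the fetal regions. COL6A1 had levels of -1.60, -2.13 and -2.12 in the intermediate interzone, outer interzone and transient cartilage, a range of 0.53, and was not well above background in the adult layers. COL6A2 stood at -2.31, -3.97 and -5.09 in the same order, in steps of 1.66 and 1.13. Both steps were larger than the spot error, but the other COL6A2 probe gave -0.09 for the first. COL6A3, which makes the longest of these chains, stood at 2.44, 1.97 and -2.37, so that both interzone layers were high and transient cartilage was low. COL6A3 was 27.9-fold higher in the intermediate interzone than in transient cartilage and 20.2-fold higher in the outer interzone. Its other probe, at position 9613, gave 28-fold and 18.5-fold.

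Set against each other as differences, not as levels, COL6A3 exceeded COL6A1 by 4.29 ± 0.29 (spot error) in the contrast of intermediate interzone with transient cartilage and by 4.36 ± 0.29 in that of outer interzone with transient cartilage. COL6A3 exceeded COL6A2 by 2.02 and 3.21 in the same contrasts, by the COL6A2 probe at position 2238. By the other COL6A2 probe, the COL6A2 differences in these contrasts were at least 3.76 and 3.85, against 4.80 and 4.34 for COL6A3. The size of this excess thus depended on the COL6A2 probe. Between the interzone layers COL6A1 and COL6A3 differed by 0.06, within the spot error, whereas COL6A2 exceeded COL6A3 by 1.19. That last value, too, rests on 1 of the 2 COL6A2 probes. The probe ending at the stop codon gave -5.22 and -5.13 in the intermediate and outer interzone, a difference of -0.09 against 1.66 at position 2238. With the mean over probes, COL6A2 exceeded COL6A3 by 0.25. Both COL6A2 probes were lower in transient cartilage, where the one ending at the stop codon was not well above background and the outer interzone was at least 14.4-fold higher by it. For type I collagen, the COL1A1 difference exceeded that of COL1A2 by 1.11 in the intermediate interzone and 1.19 in the outer interzone, each against transient cartilage, and the chains differed by 0.08 between the interzone layers. With the mean over probes the excess of COL1A1 was 0.70 and 0.86 in the contrasts with transient cartilage, since the reported COL1A2 probe gave less than the other COL1A2 probes did.

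**Figure D3:**
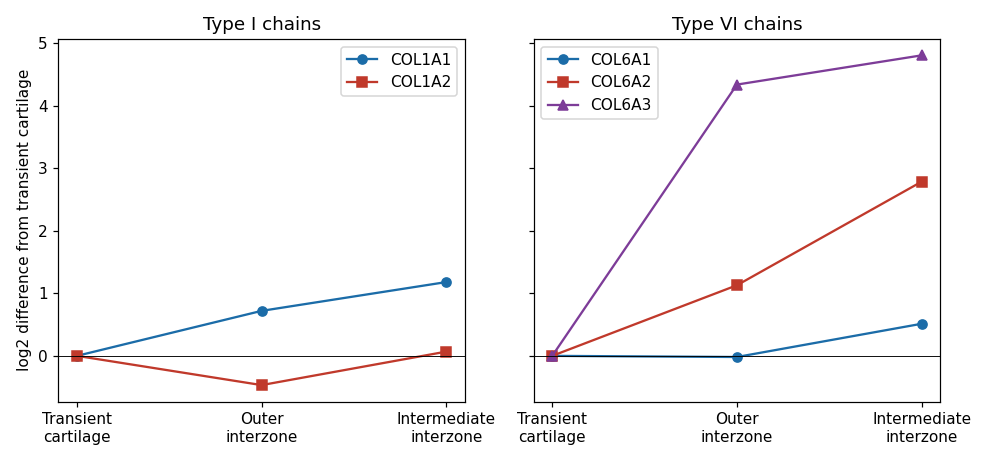
Level of each type I chain gene (left) and each type VI chain gene (right) relative to its own level in transient cartilage (log2 difference), for the 3 fetal arrays; each point is 1 array and lines join the values of a gene. COL6A3 is higher by 4.34 and 4.80 in the outer and intermediate interzone, while COL6A1 stays between -0.02 and 0.51.

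COL12A1, a FACIT collagen found with type I fibrils in dense connective tissue, was graded across the fetal arrays. Its 5 overlapping probes gave means of 0.22 ± 0.07 (SD, n = 5 probes) and -0.96 ± 0.04 in the intermediate and outer interzone, -2.35 ± 0.06 in transient cartilage, and -4.43 ± 0.21 in the superficial adult layer. The 4 arrays did not overlap in any of these probes, which share nearly all their bases. In the middle and deep adult layers no COL12A1 probe was well above background, and a probe at position 4787 was not well above background on any array. By the reported probe, COL12A1 was 5.61-fold higher in the intermediate interzone than in transient cartilage and 2.61-fold higher in the outer interzone.

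COL16A1, a FACIT collagen known from the territory around chondrocytes and from fibrillin-rich fibrils of skin, was the only member well above background on all 6 arrays. Its probe gave 0.80, 0.78 and 0.35 in the intermediate interzone, outer interzone and transient cartilage, a narrow range. In the adult it gave -6.38 in the superficial, 2.83 in the middle and -5.03 in the deep layer. The middle layer was thus the highest of the 6 arrays and the other adult layers the lowest. The raw signals were 30.8, 3610 and 27.3 in the superficial, middle and deep layers, and all 3 come from the same probe. Among the other 533 genes with a proper symbol (unnamed LOC entries left out) that were well above background on all 6 arrays, those whose profiles came closest to COL16A1, by root mean square difference after centring each gene on its own mean, included EMD at 1.93 and PARP1 at 2.00, against a median of 3.40. EMD encodes the nuclear envelope protein emerin and PARP1 a poly(ADP-ribose) polymerase. EMD also had its highest level in the middle adult layer, at -0.60, whereas PARP1 was highest in transient cartilage, at -1.19.

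The intermediate interzone was next compared with transient cartilage over the whole group, to ask which collagens separate the joint-forming cells from the cartilage template. Of the 8 members measured on both arrays, COL3A1, COL6A2, COL6A3 and COL12A1 were at least 4-fold higher and none was at least 4-fold lower. Over all 4304 genes measured on both arrays, 14.9% were at least 4-fold higher and 6.69% at least 4-fold lower. COL5A2 was the fifth, by its bound, and 18.8% of genes were at least 4-fold higher when bounds were counted. The COL5A2 bound of 2.30 fell short of 4-fold with quantile normalisation, at 1.60, and with normexp, at 1.52. All 8 measured members had a positive difference, with a median of 1.83 against 0.36 over all genes, and 6 exceeded that median of all genes by more than 0.10. COL1A2 was below it and COL16A1 0.09 above it. The split of all genes was 642 higher against 288 lower, and became 325 against 40 with normexp background correction, where 4 members were called.

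In the outer interzone against transient cartilage, COL3A1 and COL6A3 were at least 4-fold higher among 8 measured members and none was 4-fold lower, against 10.5% of 4794 genes higher and 8.36% lower. The members' median was 0.92 and that of all genes 0.08. COL1A2 and COL6A1 had negative values of -0.47 and -0.02. COL6A1 changed sign with the scaling, to 0.37 with the array median. The array median also moved the split of all genes from 504 higher and 401 lower to 679 and 287. These contrasts share the transient cartilage array, so that they are not independent of each other.

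Between the interzone layers, by the reported probes, all 8 measured members were higher in the intermediate layer, with a median of 0.53 against 0.22 over all genes, and 0 of them reached 4-fold, where 18.2% of 4269 genes did so in either direction and 10.9% in the higher one. COL5A2 passed by its bound, at 2.26, and 17.2% of genes did with bounds counted. Its bound fell short of 4-fold with quantile normalisation, at 1.41, and in the authors' values, at 1.99. By the reported probes the largest measured differences were those of COL6A2 at 1.66 and COL12A1 at 1.11. With the mean over probes COL3A1 was the largest, at 2.80, since its site at positions 274 to 278 differed by 3.70, and COL12A1 and COL6A2 gave 1.18 and 0.78. COL16A1 differed by 0.01 and turned to -0.24 with the array median, a scaling that also brought the split of all genes from 466 higher and 310 lower to near parity, at 371 and 384 in the authors' values, which use that median.

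**Figure D4:**
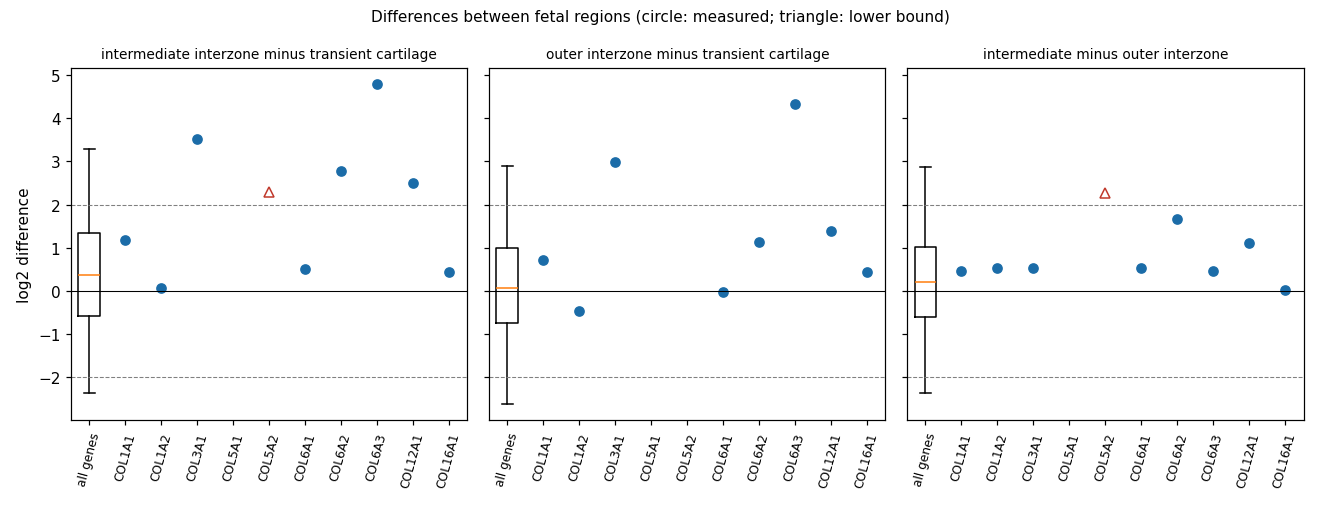
Log2 difference of each collagen gene in the 3 comparisons of fetal regions; circles are measured on both arrays, triangles are lower bounds, and the box plot at the left of each panel covers all genes measured (box, quartiles; line, median; whiskers, 5th to 95th percentile), with dashed lines at 4-fold. COL3A1 and COL6A3 lie above the dashed line in both comparisons with transient cartilage, and no circle, which stands for the reported probe, does in the comparison of the interzone layers.

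Markers of other tissues moved with these fetal contrasts. The summed level of 9 cartilage markers, in multiples of the array's 75th percentile signal, was 2.37 and 4.35 in the intermediate and outer interzone and 74.6 in transient cartilage, with 6, 8 and 9 of the 9 well above background. For 7 markers of tendon, ligament and perichondrium the sums were 1.37, 1.23 and 0.0407, with 5, 6 and 3 of 7 well above background. TNMD, a defining tendon gene, was not well above background on any array, and SCX was so in the outer interzone only. Of 5 osteoblast markers 2, 1 and 1 were detected, of 7 skeletal muscle markers 4, 3 and 4, and of 2 smooth muscle and pericyte markers 1, 1 and 0. MYL1, a muscle myosin light chain, was 25.7-fold higher in the intermediate than in the outer interzone. The other measured muscle markers differed little there, ACTA1 by 1.22-fold and TNNT1 by 1.48-fold. Summed muscle levels were 0.608, 0.415 and 0.407 in the intermediate interzone, outer interzone and transient cartilage. Of 3 blood markers only HBB, a globin, was detected, 4.94-fold higher in the intermediate interzone than in transient cartilage and 13.5-fold higher than in the outer layer, with summed levels of 0.202, 0.0169 and 0.0430. Of 5 epithelial markers KRT17 and EPCAM were detected in the outer interzone and none on the other fetal arrays, with sums of 0.00599, 0.248 and 0.00380. KRT17 was at least 113-fold and EPCAM at least 10.5-fold higher there than in transient cartilage. None of 5 endothelial markers was well above background on a fetal array. Immune markers were detected on each fetal array, 5 of 6 in each case, with sums of 57.59, 31.35 and 29.82. PTPRC, the brightest, stood at 5.85, 4.96 and 4.89. Of 5 immune markers measured in both interzone layers, 4 were higher in the intermediate one. LOC100052310, the entry used for the MHC class II marker DRB, was 6.43-fold higher there, and CD68 was 2.35-fold lower. The part of cell mixture in the collagen differences was not tested.

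The measured cartilage collagens were lower than in transient cartilage in both interzone layers. In the intermediate interzone against transient cartilage, all 6 measured genes of 8 listed were at least 4-fold lower, with COL27A1 at -4.71, COL2A1 at -4.45 and COL11A1 at -4.06, and COL11A2 was at least 156-fold lower by its bound. In the outer interzone all 7 measured genes were at least 4-fold lower, COL9A1 by the most, at -5.17. COL10A1, the collagen of hypertrophic cartilage, was not well above background on any array. Among 15 basement membrane and other collagens on the array, COL24A1 was 15.2-fold and COL8A2 6.78-fold higher in the intermediate interzone than in transient cartilage, COL15A1 was 4.35-fold lower, and the basement membrane chains COL4A1 and COL4A2 were higher by bounds, at least 47.3-fold for COL4A1 and at least 72.3-fold for COL4A2.

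Most genes that fold and modify procollagen lay within 4-fold. Of 17 on the array, 15 were measured in the intermediate interzone and transient cartilage, with 0 at least 4-fold higher, 2 lower, and a median of -0.24. The 2 were FKBP14 at -5.04 and FKBP10 at -2.31, both prolyl isomerases of the endoplasmic reticulum, and P4HA3, a prolyl hydroxylase subunit, was at least 158-fold lower. In the outer interzone 14 were measured, with 0 higher, 2 lower, FKBP14 at -4.86 and P4HA2 at -2.49, and a median of -1.10. P4HA3 and PLOD3 were lower there by bounds, at least 298-fold and 12.4-fold. Among 9 genes of propeptide removal and cross-linking, PCOLCE, an enhancer of procollagen C-proteinase, was 9.62-fold higher in the intermediate interzone than in transient cartilage, and its paralogue PCOLCE2 was 32.2-fold lower. BMP1, the C-proteinase itself, was at least 6.67-fold higher.

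Proteins that coat or link fibrils were split. Of 14 measured among 18, 6 passed 4-fold upward in the intermediate interzone against transient cartilage and 2 downward, with a median of 0.70. Over all genes measured, 14.9% passed upward and 6.69% downward, with a median of 0.36. OGN, a small leucine-rich proteoglycan, was 30.1-fold higher, THBS1 58.7-fold lower and COMP 14.5-fold lower, and by bounds ASPN was higher at least 440-fold, and DCN by at least 55.5-fold. Collagen receptors gave 0 genes past 4-fold among 4 measured there, the largest being ANTXR2 at 1.89, while CSPG4 was lower by a bound of at least 50.6-fold and DDR2 by one of at least 37.2-fold. In the outer interzone 3 of 6 measured receptors were at least 4-fold lower, among them DDR2, a receptor for fibrillar collagen, at -4.97. Of all genes measured in that comparison, 8.36% were at least 4-fold lower.

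Of 11 genes of collagen breakdown, 4 were measured in the intermediate interzone and transient cartilage, and TIMP2 and MMP2 were 36.9-fold and 5.12-fold higher. Of 8 regulators of collagen expression, 3 were measured, and MKX, a tendon transcription factor that promotes type I collagen, was 51.1-fold and TGFB2 14.3-fold higher. In the outer interzone the same genes were 16.4-fold and 20.2-fold higher. The bound for PDGFRA in the intermediate layer was at least 42.7-fold higher.

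The adult layers were compared with each other to ask whether these collagens mark a depth. Few members could be measured there. Between the superficial and the middle layer, 2 members were well above background on both arrays. COL16A1 was lower by 592-fold in superficial cartilage, and COL6A2 differed by 0.46 with a spot error of 0.27. Over all 993 genes measured, 37% were at least 4-fold lower and the median was -1.51. COL3A1 was at least 117-fold and COL6A3 at least 96.9-fold higher in the superficial layer by bounds, where 42.8% of genes were at least 4-fold higher with bounds counted. COL12A1 had a bound of 3.57-fold. Scaling weighs heavily here: with the array median the split of all measured genes went from 95 higher and 367 lower to 239 and 74, and that of the members from 2 higher and 1 lower to 4 and 1. Under quantile normalisation COL6A2 turned to -2.20 and the members split 2 and 2. COL16A1 kept its sign, at -7.26 with the array median.

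Between the superficial and the deep layer, 0 of 2 measured members reached 4-fold, against 32% of 1249 genes in either direction. COL6A3 was 3.96-fold higher, just under that size, and COL16A1 was 2.55-fold lower. By bounds COL3A1 was at least 212-fold, COL12A1 at least 6.46-fold and COL6A2 at least 4.11-fold higher, where 42.9% of 3688 genes were at least 4-fold higher with bounds counted. The members split 3 higher and 0 lower, 1 and 1 with the 75th percentile over all probes and 2 and 1 with quantile normalisation. The COL6A3 value rests on 1 of its 2 probes: the probe at position 9681 gave -1.40 in the deep layer, whereas the probe at position 9613 was not well above background there, and by it the superficial layer was at least 244-fold higher.

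Between the middle and the deep layer, COL16A1 was 232-fold higher in the middle layer, where 12.9% of 807 genes were at least 4-fold higher. By its bound COL6A3 was lower in the middle layer, at least 24.4-fold, with 26% of 1889 genes at least 4-fold lower when bounds were counted. That bound too rests on the probe at position 9681. The split of all measured genes, 104 higher and 65 lower, became 44 and 97 with the array median. COL1A1, COL1A2, COL3A1, COL5A1, COL5A2, COL6A1 and COL12A1 were not well above background in either layer, which at this detection rate gives no level.

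Marker genes of other tissues differed between the adult layers as well. Of 5 osteoblast markers, 4 were well above background in the superficial layer, 2 in the middle and 0 in the deep layer, with summed levels of 1.18, 0.713 and 0.0165. The summed level of the tendon, ligament and perichondrium markers was 1.87, 0.198 and 0.679, and that of the cartilage markers 8.88, 5.34 and 114. Such sums follow the brightest probes, and COMP alone stood at 6.73 in the deep layer. Cartilage markers well above background numbered 3, 4 and 3 of 9. ACAN was also highest in the deep layer, at 2.90, whereas SOX9 was highest in the middle layer, at 0.48, against -1.81 in superficial and -0.96 in deep. The smooth muscle and pericyte marker TAGLN was well above background in the superficial layer and in neither of the others. Some markers were highest in the middle layer. The immune markers CSF1R and CD68 were 22.4-fold and 6.66-fold lower in superficial than in middle cartilage, while PTPRC was 1.19-fold higher. Immune markers well above background numbered 5, 3 and 4 of 6. VWF, an endothelial marker, was 8.21-fold lower in superficial than in middle cartilage. Among epithelial markers, KRT17 was well above background in the middle layer only and KRT14 in the superficial layer only. Skeletal muscle sums were 0.0381, 0.104 and 0.0588 in superficial, middle and deep cartilage. The part of all these markers in the collagen values was not tested.

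The superficial adult layer was compared with the intermediate interzone because the interzone is the fetal tissue at the site of the future joint surface. Of 7 members measured on both arrays, all had a lower level in the adult, and 6 were at least 4-fold lower, against 18% of 2699 genes. COL6A1 was at least 102-fold lower by its bound, where 37.4% of genes were at least 4-fold lower with bounds counted. The median of the measured members was -4.35 and that of all genes -0.11. COL1A1 was 2602-fold and COL1A2 4068-fold lower, COL16A1 144-fold, COL12A1 20.4-fold, COL3A1 16.6-fold and COL6A2 5.71-fold. COL6A3 was 3.60-fold lower, and its direction turned to 0.47 with the 75th percentile over all probes. That scaling moved the median of all genes by 2.32 and the split of all genes from 432 higher and 486 lower to 1501 and 127, and left 5 members at least 4-fold lower.

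The COL1A2 value depended on the probe. The last probe, at position 4050, gave -2.12 in the superficial adult layer with a signal of 587, and was 75.4-fold lower there than in the intermediate interzone, whereas the 7 probes of COL1A2 other than this one and the reported one were not well above background in the adult. For the 5 of them at positions 3706 to 3710 the fold was at least 7495. Whether the COL1A2 probes differ in binding messages of related collagen chains was not tested, and both the 4068-fold and the 75.4-fold value carry that limit.

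Other genes of the pathway also differed between these arrays. SERPINH1, the collagen chaperone HSP47, was at least 233-fold lower in the superficial adult layer, and of 9 measured folding genes 1 was at least 4-fold higher, PLOD3, and 1 lower, CRTAP. With bounds counted, 1 folding gene was higher and 6 lower, of 17 on the array, among them LEPREL1 by at least 69.9-fold and P4HA1 by at least 58-fold. Over all genes, 18% of those measured and 37.4% with bounds counted were at least 4-fold lower. PCOLCE2 was 908-fold and LOXL4 16.1-fold higher, and PCOLCE 6.79-fold lower. SPARC, a collagen-binding protein, was 231-fold lower, THBS1 1242-fold and COMP 35.5-fold higher. MMP2 was 56.1-fold lower and TIMP3 78-fold higher, and CCN2, a growth factor target linked to matrix production, was 2467-fold higher.

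Over the means of the 3 adult and the 3 fetal arrays, COL16A1 was the only measured member, at -3.50 or 11.3-fold lower in the adult, where 9.76% of 574 genes were at least 4-fold lower. Its adult values spanned -6.38 to 2.83, so the mean of the adult layers describes none of them, and 1 of the 3 lay above every fetal value. COL6A1 was at least 34.3-fold lower by its bound, against 47.3% of 1875 genes lower with bounds counted. With the 75th percentile over all probes, all genes split 443 higher and 3 lower in place of 85 and 56, and COL16A1 stood at -0.80. The 3 regions of an age are not replicates of a condition.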

How the data were processed

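The intensity values used were Agilent Feature Extraction's processed signals, version 10.7.3.1 per the file headers, as the authors deposited them, with background already subtracted. The deposited series table holds a ratio, the processed signal over each array's median, found by setting it against the scanner files (column medians 1.0, largest gap 0.00499), and served as an alternative. From the deposited intensities, log2 was taken here after averaging the spots of a probe without control and outlier spots, and each array's 75th percentile was subtracted, computed from the 1765 probes that were above background everywhere. Genes were named from the files' annotation and RefSeq gene numbers, and 19936 probes stayed unnamed. A gene takes its probe with the highest mean level, counts as measured where that probe is well above background on every array compared, and is called at 4-fold or more. Text names all members and, from each list, up to 3 measured genes with the largest differences and 2 bounds, with the 3 genes most like a member, of which 1 is not reported here. Members and lists were chosen with earlier results of these data known. There is no test, since each group has 1 array. The calling step was tested on simulated data. Alternatives were other percentiles, quantile normalisation and normexp (offset 50; limma 3.58.1 in R 4.3.3), the authors' ratios, means over probes, a wider filter and 2-fold. Python 3.11.15, numpy 2.4.6, pandas 2.3.3 and matplotlib 3.10.9 were used.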

Additional observations from a re-analysis of the deposited data

How the results depend on the processing

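No paired analysis was possible because each group is 1 array. No called difference of a member that was measured on both sides reversed. A bound could not reverse, because a bound of the wrong sign was dropped, and the wider filter was not part of this check. Of the counts and chain differences 123 values stayed close to the main one and 19 moved, and of the members' own differences 212 stayed and 81 moved. For members at least 4-fold apart, the 2-fold threshold gave 4 in place of 2 for the outer interzone against transient cartilage, 3 in place of 1 between the interzone layers and 5 in place of 3 between the superficial and deep layers. Between the interzone layers the count of 1, COL5A2, became 0 with quantile normalisation and with the authors' values, and 2 with the mean over probes. Between the superficial and middle layers the 50th percentile over all probes and the authors' values gave 5 in place of 3. For the adult against the fetal mean, the 75th percentile over all probes gave 1 in place of 2, the wider filter 8, and leaving out 1 array gave 2 to 5, with 5 when the adult superficial array was left out. The chain differences moved as follows. With normexp, COL6A1 minus COL6A2 was -1.59 in place of -2.27 (intermediate interzone against transient cartilage) and -0.57 in place of -1.15 (outer). With quantile normalisation, COL6A1 minus COL6A3 was -5.34 and -5.68, and COL6A2 minus COL6A3 -3.04 and -4.57, in the same comparisons. With the mean over probes, COL6A1 minus COL6A2 was -0.25 and COL6A2 minus COL6A3 0.25 between the interzone layers. The cause of the shifts with scaling was not tested; low detection on the middle and deep adult arrays limits every adult statement.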

Other observations

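Among collagens outside the group, some were well above background in some regions only and others on all 6 arrays. COL6A6, a further type VI chain, stood at -2.27 in the intermediate and -2.14 in the outer interzone and was not well above background elsewhere. COL28A1 was well above background in transient cartilage only, at -3.97. COL8A1 was so in the outer interzone at -4.82 and in the superficial adult layer at -6.79. COL14A1, a FACIT collagen, was well above background in the outer interzone only, at -7.01. COL18A1 and COL7A1 were well above background on all 6 arrays, between -6.66 and -4.26 and between -7.79 and -5.66. The COL7A1 signals ran from 8.45 to 25.5, where the lowest signals well above background were 7.65 to 9.24.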
